A study of Lens culinaris with 20 samples.

Results

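Young pods were set against flowers of lentil (Lens culinaris), a grain legume, to describe how mature miRNAs differ between the flower and the early fruit. All 3 small RNA libraries of young pods and both libraries of flowers were taken, which is 5 of the 20 libraries of the study. The study profiled 7 tissues, the others being roots, shoots, mature leaves, stem and flower buds. The labels give the tissue of each library and no genotype, treatment or age. RNA came from pooled samples, per the labels' protocols. Whether replicate libraries stem from different pools of plants is not stated, so each p-value covers just the library-to-library spread, which may be technical. Only miRNAs were measured, so no marker gene of pods or flowers could be read as a check of the tissue labels.

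Entries of the deposited table with the same mature sequence were treated as 1 feature, which gave 1464 features. Of these, 668 were listed with reads in at least 1 of the 5 libraries and 182 in all 5. A family is the set of features whose names carry the same miRNA number. The numbers miR157, miR165 and miR170 were joined to miR156, miR166 and miR171. Families numbered 80 and took in 394 features, and the other 1070 belonged to none. After a filter on low counts, 321 features and 53 families were tested.

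Plant miRNAs are short RNAs cut from the arms of a hairpin precursor, and a mature strand guides an Argonaute protein to messenger RNAs that pair with it. The strand from the left arm is named 5p and that from the right arm 3p. In Arabidopsis, miR156 and miR172 act on SPL and AP2-like transcription factors and mark successive phases of the life cycle. Also in Arabidopsis, miR164 acts on NAC genes that set organ boundaries and the fusion of carpels, miR167 and miR160 act on auxin response factors, and miR319 acts on TCP factors that control cell division in leaves and petals.

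The sequences that carry the main differences are printed 5′ to 3′ with T for U, as the deposited table has them, and capitals mark the seed, bases 2 to 8. Names are those of the table, in which a prefix gives the species of the matching known miRNA, and lcum stands where there is none. The first set holds called members of 3 of the families that were higher in young pods. The 2 miR168 strands are arms of one listed precursor, while no pairing is given for the 2 miR164 features, of which the one named 3p is not matched to a listed precursor.
ath-miR164a: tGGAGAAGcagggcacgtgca
ath-miR164b-3p_2ss10AC16AC: cATGTGCCcctcttccccatc
gma-miR156b_L+1R-1: tTGACAGAagagagagagcac
ath-miR168a-5p: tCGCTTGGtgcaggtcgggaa
ath-miR168a-3p: cCCGCCTTgcatcaactgaat

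The second set holds 6 miR167 features, of which 3 were called higher, 1 lower and 2 neither. The 4 strands of the 5p arm share a seed, and the 19 nt feature is the first 19 bases of each of the other three. The 2 strands named 3p also share a seed with each other, and they moved in opposite directions.
ath-miR167a-5p_R+1_1ss21AT: tGAAGCTGccagcatgatctta
ath-miR167a-5p_R-2: tGAAGCTGccagcatgatc
ath-miR167d_1ss22GA: tGAAGCTGccagcatgatctga
ath-miR167a-5p: tGAAGCTGccagcatgatcta
ath-miR167a-3p_L+1_2ss10TG11C-: aGATCATGtggcagtttcacc
osa-miR167e-3p_2ss12CG21TC: aGATCATGttggagcttcacc

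The third set was lower in young pods. The features named gma-miR4414a-3p and gma-miR319f are shown together because they lie on opposite arms of one listed precursor. The 2 miR172 strands named ath-miR172a share a seed, and csi-miR156j-5p bears the miR156 number without the seed of gma-miR156b. Its seed is that of mtr-MIR319d-p5, a feature with the miR319 number.
gma-miR4414a-3p_L+1_1ss10TA: aTCCAACGaagcgggagctgc
gma-miR319f_1ss17TC: tTGGACTGaaggggcccctt
ath-miR172a: aGAATCTTgatgatgctgcat
ath-miR172a_1ss21TG: aGAATCTTgatgatgctgcag
aly-miR172b-5p_1ss7CG: gCAGCAGCatcaagattcaca
ath-miR408-3p_L-1R+2: tGCACTGCctcttccctggctc
csi-miR156j-5p: aGCTGCTGactcgttggttca
lcum-miR-70562_122-3p: aGATTTGTtgttcttgtattagac

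Library totals were 453815, 378208 and 196951 reads in young pods, against 232244 and 997062 reads in flowers, within a range of 72819 to 997062 over the 20 libraries. Levels are given in CPM, which are counts scaled to library size with TMM factors. The table has a lower limit: of 3892 values above 0 in entries with whole, unshared counts, 13 lay under 5 reads. A 0 therefore stands for fewer than about 5 reads, while smaller values occur in entries with fractional counts, such as csi-miR156j-5p. A count of 5 reads is worth 11.3, 15.6 and 27.7 CPM in young pods and 21.8 and 5.49 CPM in flowers. Across the tested features, Spearman's rho was 0.871 to 0.940 between young pod libraries, 0.940 between the flower libraries and 0.816 to 0.864 between the tissues, as a description over features that share a library. In the balance of precursor arms, young pods 3 stood at an end of the libraries in most pairs and young pods 1 often at the other, as given further on. In these bulk libraries, fewer cells that make a miRNA and less miRNA per cell cannot be told apart.

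Of the 321 features, 9 were called higher in young pods (2.80%) and 19 lower (5.92%), which is 8.72% together, with edgeR's quasi-likelihood F-test fitted over all 20 libraries. A call needs a Benjamini-Hochberg adjusted p under 0.05 and a log2 fold change, young pods over flowers, of at least 1 in size. Of the 53 families, 7 were called higher (13.2%) and 8 lower (15.1%), together 28.3%. Of the 28 called features, 26 did not overlap between the tissues and 2 did. Among all 321, every young pod library was above both flower libraries in 11.5% and below both in 28.7%. The families called higher were miR156, miR160, miR162, miR164, miR167, miR168 and miR390. Those called lower were miR172, miR319, miR395, miR397, miR408, miR4414, miR5368 and miR8176. In all 15 called families every young pod library lay on one side of both flower libraries, as it did above flowers in 28.3% and below flowers in 30.2% of all families tested. Family levels were scaled on family sums, and family fold changes lie 0.42 above those of features on the log2 scale through that scaling alone. With library size as the only scaling, the median family fold change moved by -0.47, and the split became 2 higher (miR164 and miR168) and 10 lower.

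**Figure D1:**
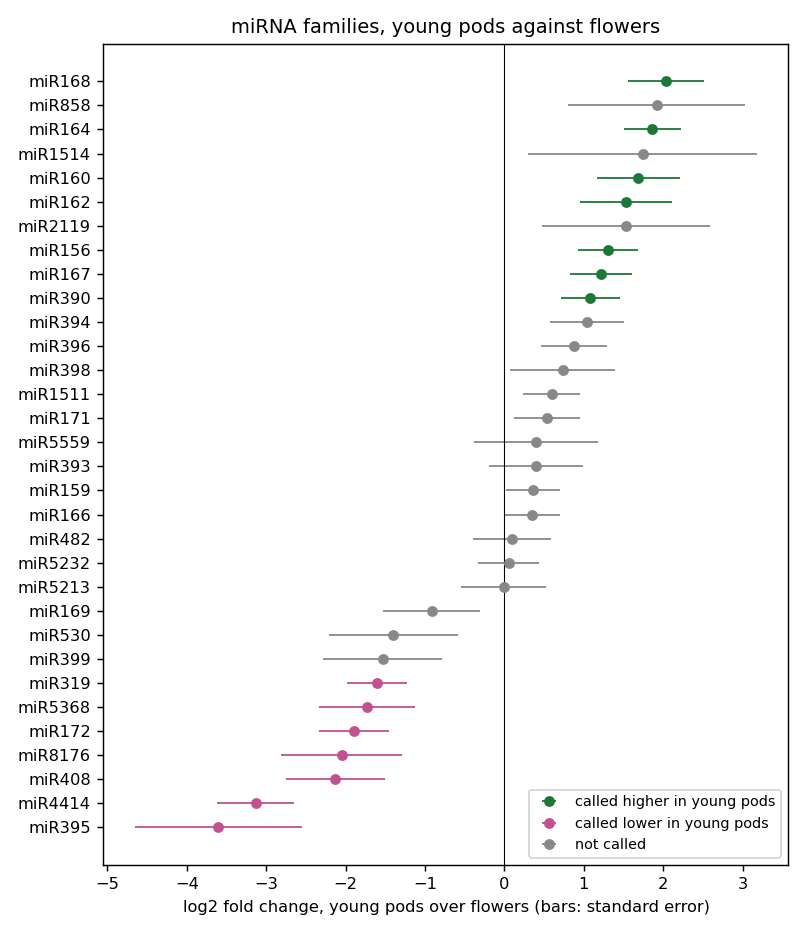
Log2 fold change of family levels, young pods over flowers, for the families of the lists described here and all other called families, with bars for the standard error. Families at 0 in every young pod library are not drawn. The calls higher in young pods run from 1.08 (miR390) to 2.03 (miR168), and the drawn calls lower run from -1.61 (miR319) to -3.60 (miR395).

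**Figure D2:**
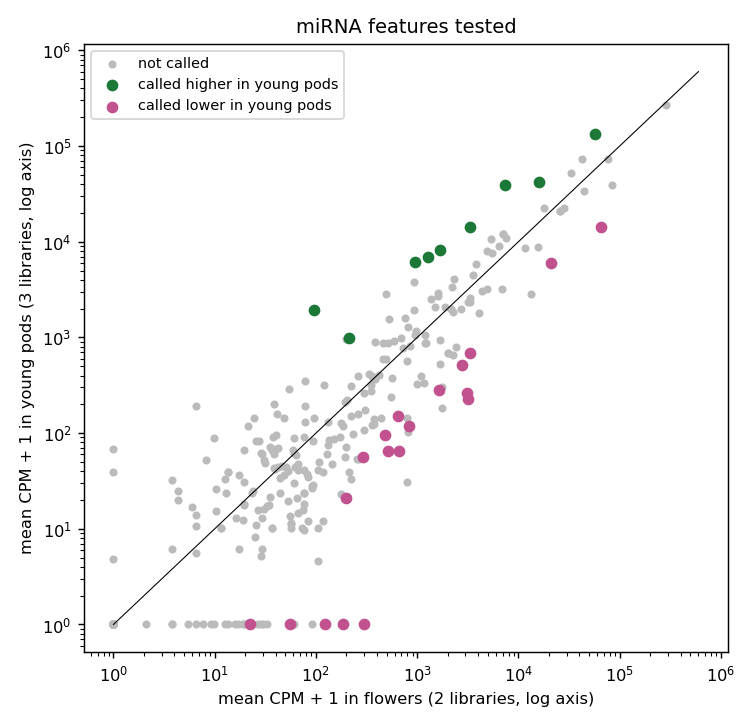
Mean level of each of the 321 tested features in young pods (vertical axis) against flowers (horizontal axis), as CPM + 1 on log axes, with 1 point per feature. The line marks equal levels. Called features lie off the line on both sides, and 5 of the 19 called lower sit at 0 in every young pod library.

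The phase change pair moved in opposite directions. The miR156 family had 24888, 37989 and 36597 CPM in young pods, against 12664 and 14122 CPM in flowers. All young pod libraries were above both flower libraries, and the family rose by 1.31 ± 0.38 on the log2 scale (SE; edgeR adjusted p = 0.0186). The miR172 family had 716, 809 and 1168 CPM in young pods, against 2970.3 and 3704 CPM in flowers. The highest young pod library was below both flower libraries, with a log2 fold change of -1.90 ± 0.45 (edgeR adjusted p = 0.00353). Within each library, miR156 reads outnumbered miR172 reads 34.8, 46.9 and 31.3 times in young pods, against 4.26 and 3.81 times in flowers and 4.74 to 6.34 times in flower buds. This ratio does not depend on scaling. It was chosen after the values were seen and is given as a description.

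Of 19 tested miR156 features, 1 was called higher, 1 lower, and 17 neither. These counts are near the shares over all 321 features, 2.80% higher and 5.92% lower. The feature gma-miR156b_L+1R-1 had 4073, 9834 and 10598 CPM in young pods, against 1471 and 1876 CPM in flowers, without overlap (2.29 ± 0.54, edgeR adjusted p = 0.0120). The most abundant member, mtr-miR156e, had 9463, 11934 and 11262 CPM in young pods, against 6560.4 and 8395 CPM in flowers, and was not called (0.54 ± 0.44, edgeR adjusted p = 0.533). The scarce csi-miR156j-5p went the other way, with 4, 13 and 2 reads in young pods, against 41 and 198 reads in flowers (-3.25 ± 0.79, edgeR adjusted p = 0.0128). It is counted in miR156 by its name alone and shares its seed with mtr-MIR319d-p5, so it is no clear case of a miR156 member that fell. The family call was lost without flowers 1, flowers 2 or young pods 2, with no filter on low counts, and with library size alone, where the log2 fold change was 0.84.

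All 6 tested miR172 features were lower in young pods in their fitted values, and 3 were called. The strand ath-miR172a had 402, 585 and 1091 CPM in young pods, against 2749.8 and 3829 CPM in flowers. No young pod library reached a flower library (-2.25 ± 0.51, edgeR adjusted p = 0.00884). The 5p strand aly-miR172b-5p_1ss7CG, paired on its listed precursor with ath-miR172a_1ss21TG, had 43.1, 93.3 and 55.4 CPM in young pods, against 489 and 533 CPM in flowers. It was lower in every young pod library as well (-2.99 ± 0.46, edgeR adjusted p = 0.00146) and was called under every alternative tried. The call of ath-miR172a was lost without flowers 2, young pods 1 or young pods 2 (edgeR adjusted p up to 0.258 over the alternatives), while the family call held in all 16 alternatives.

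Of 5 families tied to auxin and trans-acting siRNAs, 4 rose and none fell, where 13.2% of all families tested rose, and the median log2 fold change was 1.21, against 0.01 over all families tested. With library size alone, miR164 was the one family of the 5 that was still called. The miR164 family was the most abundant of them, with 248537, 158579 and 140907 CPM in young pods, against 47490.5 and 52903 CPM in flowers. The lowest young pod library was well above both flower libraries, and the family rose by 1.86 ± 0.36 (edgeR adjusted p = 0.000809). This call held in all 16 alternatives. The mature strand ath-miR164a averaged 134304 ± 18846 CPM in young pods (SD, n = 3) and 57284 ± 10753 CPM in flowers (SD, n = 2), a change of 1.23 ± 0.28 (edgeR adjusted p = 0.00884). That feature call was lost without flowers 1, in a fit on the 5 libraries only and with the replicate block (edgeR adjusted p up to 0.258). The feature ath-miR164b-3p_2ss10AC16AC had 54916, 36713 and 26572 CPM in young pods, against 9528 and 5109.6 CPM in flowers. It rose too, by 2.43 ± 0.44 (edgeR adjusted p = 0.00196), and lost its call without flowers 2 and in the fit on the 5 libraries only. Of 9 tested miR164 features, 2 were called higher and none lower.

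The miR167 family had 11005, 11613 and 13051 CPM in young pods, against 4055 and 6189 CPM in flowers. Every young pod library was above both flower libraries (1.21 ± 0.39, edgeR adjusted p = 0.0267). Its features did not move together: of 8 tested, 3 were called higher and 1 lower. Among strands of the 5p arm, ath-miR167a-5p_R+1_1ss21AT had 5242, 6628 and 8837 CPM in young pods, against 873 and 1669 CPM in flowers (2.44 ± 0.45, edgeR adjusted p = 0.00202). The 19 nt feature ath-miR167a-5p_R-2 had 822, 681 and 1439.6 CPM in young pods, against 201 and 222 CPM in flowers (2.21 ± 0.65, edgeR adjusted p = 0.0440). Both were higher in all young pod libraries. The other 2 strands with this seed lay the other way. The feature ath-miR167d_1ss22GA, the most abundant of the family in flowers, had 926, 1826 and 2636 CPM in young pods, against 2889.5 and 5226 CPM in flowers. It was below flowers in every young pod library and was not called (-1.18 ± 0.44, edgeR adjusted p = 0.108). The scarcer ath-miR167a-5p, also without overlap, was not called either (-1.28 ± 0.58, edgeR adjusted p = 0.198). The 19 nt sequence fits all of these longer strands, so its reads cannot be assigned to one of them.

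The 3p strands of miR167 differed most. The feature ath-miR167a-3p_L+1_2ss10TG11C- had 2204, 2261 and 1285 CPM in young pods, against 69.8 and 118 CPM in flowers. It had the largest log2 fold change among the features called higher, 4.32 ± 0.61 (edgeR adjusted p = 0.000440), and was called under every alternative. By contrast osa-miR167e-3p_2ss12CG21TC had 161, 96.4 and 99.7 CPM in young pods, against 825 and 836 CPM in flowers. It was lower in every young pod library (-2.79 ± 0.50, edgeR adjusted p = 0.00196), although it shares its seed with the 3p strand that rose. The family call was lost without flowers 1, flowers 2, young pods 2 or young pods 3, and with library size alone, where the log2 fold change was 0.74. The feature ath-miR167a-5p_R+1_1ss21AT lost its call without flowers 1. The 19 nt feature lost its call without flowers 1, flowers 2 or young pods 3, with no filter on low counts and with the replicate block. That of osa-miR167e-3p was lost without flowers 2 and in the fit on the 5 libraries only.

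The miR160 family, whose targets are auxin response factors in Arabidopsis, had 16540.5, 13580.3 and 4324 CPM in young pods, against 4079 and 3058 CPM in flowers (1.69 ± 0.52, edgeR adjusted p = 0.0206). Young pods 3 was barely above flowers 1. The one feature called was the strand ath-miR160a-3p_2ss6TC21AG, with 7984, 9467 and 869 CPM in young pods, against 1515 and 371 CPM in flowers, so that the tissues overlapped (2.70 ± 0.80, edgeR adjusted p = 0.0440). The canonical strand mtr-miR160a had 5739, 3838 and 3832 CPM in young pods, against 3536 and 3584 CPM in flowers, and was not called (0.33 ± 0.43, edgeR adjusted p = 0.808). The miR390 family, which triggers trans-acting siRNAs against auxin response factors in Arabidopsis, had 70692, 49277 and 43293 CPM in young pods, against 27945 and 23550.2 CPM in flowers. The libraries did not overlap (1.08 ± 0.37, edgeR adjusted p = 0.0372), but 0 of its 3 tested features were called. Nearly all its reads were those of ath-miR390a-5p, with 59972, 48871 and 47645 CPM in young pods, against 35229 and 31599 CPM in flowers. On the feature scale this strand did not overlap either and was not called (0.64 ± 0.31, edgeR adjusted p = 0.224). Part of the family value thus comes from the scaling of family sums, which adds 0.42. The family calls of miR160 and miR390 were lost without either flower library, without young pods 1 or without young pods 2, and also with library size alone. The miR393 family, which acts on auxin receptors in Arabidopsis, was not called, with 698, 588 and 979 CPM in young pods, against 536 and 612 CPM in flowers.

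**Figure D3:**
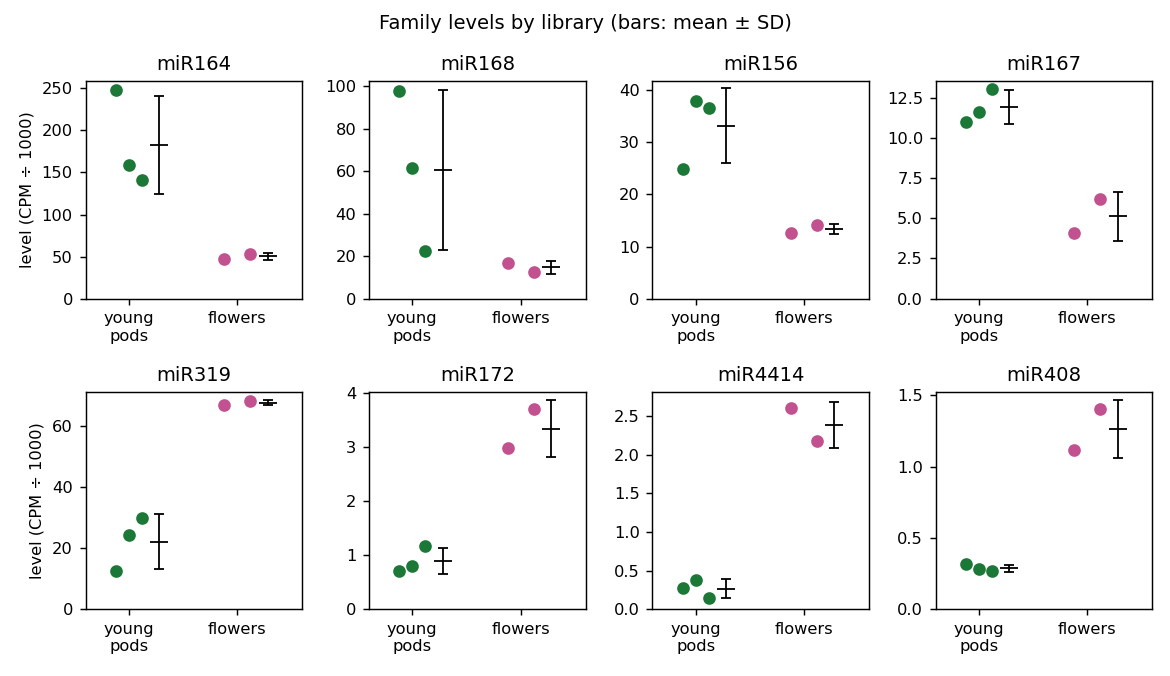
Family levels by library, in CPM divided by 1000, with young pods left of flowers, 1 point per library and a bar for the mean ± SD (n = 3 young pod and n = 2 flower libraries). The points of the tissues do not overlap in any of the 8 families shown, and the spread within young pods is widest relative to the gap in miR168.

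The families that act on the miRNA pathway itself were both called higher, as sums over the strands of both arms, where 13.2% of all families tested rose. The call of miR162 was lost in most alternatives, as given below. In Arabidopsis miR168 acts on AGO1, the main Argonaute of the pathway, and miR162 on DCL1, the enzyme that cuts the precursors. The miR168 family had 97574, 61581 and 22263 CPM in young pods, against 16984 and 12566 CPM in flowers (2.03 ± 0.48, edgeR adjusted p = 0.00353). Young pods 3 was closer to flowers than to young pods 1. The strand ath-miR168a-5p had 59974, 44731 and 21710.2 CPM in young pods, against 17176 and 14731 CPM in flowers, without overlap (1.40 ± 0.42, edgeR adjusted p = 0.0464). The opposite strand ath-miR168a-3p had 23508, 16752 and 2979 CPM in young pods, against 4413 and 2258 CPM in flowers, so that young pods 3 fell between the flower libraries (2.11 ± 0.64, edgeR adjusted p = 0.0464). The family call of miR168 was lost without flowers 2 and in the fit on the 5 libraries only. Its strands both lost their calls without flowers 1, flowers 2 or young pods 1, and in that fit as well.

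The miR162 family had 10504, 5629 and 2686 CPM in young pods, against 2304 and 2043 CPM in flowers (1.53 ± 0.57, edgeR adjusted p = 0.0489). This call was lost in 12 of 16 alternatives, among them those without flowers 1, flowers 2, young pods 1 or young pods 2. None of its 5 tested features was called. The feature gma-MIR162c-p5, the most abundant by the mean of the 5 libraries, had 7119, 3633 and 515 CPM in young pods, against 1323 and 544 CPM in flowers, with overlap (2.01 ± 0.74, edgeR adjusted p = 0.108). Its partner on the 3p arm, gma-miR162a_R+1, was more abundant in both flower libraries and in young pods 3. It had 1813, 1931 and 2436 CPM in young pods, against 1558 and 2190.0 CPM in flowers, with overlap (0.14 ± 0.51). The call of the miR162 family therefore does not stand for a rise of this 3p strand. Which strand acts on targets in lentil was not tested.

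Of 8 families that act on developmental transcription factors and regulators, miR164 (also counted above) rose, miR319 fell and 6 were not called. Over all families tested 13.2% rose and 15.1% fell, so these counts are near the overall shares. The miR319 family had 12450.4, 24330.5 and 29902 CPM in young pods, against 67094 and 68258 CPM in flowers. The flower libraries were nearly equal and lay far above each young pod library (-1.61 ± 0.38, edgeR adjusted p = 0.00353), and the call held in all 16 alternatives. Of 13 tested miR319 features, 4 were called lower and none higher. The most abundant, the 20 nt feature gma-miR319f_1ss17TC, had 3783, 16552 and 22352 CPM in young pods, against 62945 and 67574 CPM in flowers (-2.20 ± 0.53, edgeR adjusted p = 0.0128). Its call was lost without flowers 2 and in the fit on the 5 libraries only. The next, mtr-miR319a-3p_R+1, had 4779, 5474 and 7768 CPM in young pods, against 20017 and 21829.5 CPM in flowers (-1.80 ± 0.39, edgeR adjusted p = 0.00757). Neither feature overlapped between the tissues. The call of mtr-miR319a-3p_R+1 was lost without either flower library, young pods 1 or young pods 2, and in the fit on the 5 libraries only (edgeR adjusted p up to 0.258).

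The miR4414 family, known from legumes, is 1 feature in this table, gma-miR4414a-3p_L+1_1ss10TA. It had 241, 383 and 161 CPM in young pods, against 3299.8 and 2935 CPM in flowers. The tissues were far apart relative to their spread, and it had the smallest adjusted p of all features (-3.57 ± 0.39, edgeR adjusted p = 1.19e-05). The call held under every alternative, for the feature and for the family (-3.13 ± 0.49, edgeR adjusted p = 7.49e-05). Although its name says 3p, the table places it on the 5p arm of the precursor that carries gma-miR319f. Both strands of that hairpin were therefore called lower in young pods. Their log2 ratio of 5p to 3p reads was -3.97, -5.43 and -7.10 in young pods, against -4.25 and -4.52 in flowers, with overlap (exact permutation p = 0.5, two-sided).

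Within a library, miR164 reads outnumbered miR319 reads 19.96, 6.52 and 4.71 times in young pods, while they were 0.708 and 0.775 times miR319 reads in flowers. In flower buds the ratio was 0.302 to 0.724. These ratios, too, were chosen after the values were seen and carry no test.

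The other developmental families were not called. The miR166 family, which acts on HD-ZIP III factors that set leaf and carpel polarity in Arabidopsis, was the most abundant, with 286477, 287561 and 376627 CPM in young pods, against 227865 and 270351 CPM in flowers (0.35 ± 0.36, edgeR adjusted p = 0.489). The miR159 family, whose targets are GAMYB-like factors, had 81747, 74461 and 72056 CPM in young pods, against 54248 and 64213 CPM in flowers (0.36 ± 0.34, edgeR adjusted p = 0.458). On the feature scale their leading strands overlapped between the tissues and lay near equality, at -0.08 ± 0.32 for mtr-miR166a and -0.06 ± 0.38 for mtr-miR159a. The sign of the family values of miR166 and miR159 turned with library size alone, to -0.12 and -0.13. The families miR394, miR396, miR171 and miR169 had log2 fold changes of 1.04, 0.88, 0.54 and -0.92. None of them was called, although all young pod libraries lay above both flower libraries in the families miR394, miR396 and miR171.

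Among families that respond to nutrients, 2 of 4 copper families were called lower and none higher. Over all families tested 15.1% were called lower and 13.2% higher. One of the 2, miR397, is near the lower limit of reads, as given below. The miR408 family, which acts on copper proteins such as plantacyanin in Arabidopsis, had 316, 280.2 and 269.6 CPM in young pods, against 1119 and 1406 CPM in flowers. The young pod libraries were close together and all below flowers (-2.13 ± 0.63, edgeR adjusted p = 0.0186). Without young pods 2 the call was lost (edgeR adjusted p = 0.0557). Its strand ath-miR408-3p_L-1R+2 had 270.1, 279.9 and 299 CPM in young pods, against 1423 and 1889 CPM in flowers (-2.55 ± 0.53, edgeR adjusted p = 0.00582), and lost its call without flowers 2, young pods 1 or young pods 2. The miR397 family, which acts on laccases in Arabidopsis, was at 0 in all young pod libraries, against 5 and 19 reads in flowers. Its only feature, ath-miR397a, had 21.8 and 20.8 CPM in flowers, close to the 11.3 to 27.7 CPM of 5 reads in young pods, so that it is at least 1.17-fold lower in young pods on the feature scale. On the family scale this bound is 0.909, so no fold is given. The family was called, and the call was lost without either flower library, young pods 1 or young pods 2.

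The miR398 family, which acts on copper superoxide dismutases in Arabidopsis, had 105436, 215743 and 16471 CPM in young pods, against 94054 and 41392 CPM in flowers. Young pods 3 was below both flower libraries and the other young pod libraries above them, and the family was not called (0.73 ± 0.66, edgeR adjusted p = 0.437). The miR2119 family, which is known from legumes and acts on alcohol dehydrogenase in common bean, had 1345, 3596 and 44.9 CPM in young pods, against 663 and 492 CPM in flowers. It followed the same order of libraries in young pods as miR398 and was not called either (1.53 ± 1.06, edgeR adjusted p = 0.322).

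The sulfate family miR395, which acts on ATP sulfurylases in Arabidopsis, averaged 32.5 ± 13.2 CPM in young pods (SD, n = 3), with 18, 8 and 5 reads, and 407 ± 21.4 CPM in flowers (SD, n = 2), with 114 and 520 reads. It was lower in every young pod library (-3.60 ± 1.05, edgeR adjusted p = 0.0189). Its feature mtr-MIR395g-p5_1ss13CT was at 0 in all young pod libraries, against 38 and 182 reads in flowers, which is at least 10.05-fold lower in young pods when each 0 is set to 5 reads. Both the family call and that of the feature were lost without flowers 1, flowers 2 or young pods 2. The feature's call was also lost without young pods 1 or young pods 3. The phosphate family miR399 had 180.4, 321 and 69.9 CPM in young pods, against 446 and 663 CPM in flowers, and was not called (-1.53 ± 0.75, edgeR adjusted p = 0.150).

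Of 8 families known from legumes, 1 fell (miR4414) and 7 were not called, with a median log2 fold change of 0.23. Over all families tested 15.1% fell, near the share in this list, and the median was 0.01. The 3 tested families that trigger phased siRNAs in legumes, miR482, miR5213 and miR1514, were not called. The miR482 family, which acts on NB-LRR disease resistance genes, had 25795, 19106 and 23631 CPM in young pods, against 15061 and 27697 CPM in flowers, with overlap (0.10 ± 0.49, edgeR adjusted p = 0.930). The other 2 families of that list, miR1507 and miR2109, are not analysed here. The miR2118 family had 3, 6 and 7 reads in young pods, against 0 and 14 reads in flowers, too few to be tested. Of the families that act on MYB genes, miR159 and miR858 were not called, and miR828, with at most 22 reads in a library, was not tested.

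The families miR5368 and miR8176 also fell. Whether features of these families, and of miR8175 and miR6173 further on, are true miRNAs or fragments of other RNAs was not tested. The miR5368 family had 1480.0, 5028 and 5432 CPM in young pods, against 11400.5 and 14994 CPM in flowers (-1.73 ± 0.61, edgeR adjusted p = 0.0372). All 10 of its tested features were lower in young pods in their fitted values, but none was called. Some of them have identical counts in every library, such as gma-MIR5368-p3_1ss15CA_1 and gma-MIR5368-p3_1ss15CA_2, so the 10 are not separate measurements. The miR8176 family, 1 feature of 19 nt, had 350.1, 616 and 569 CPM in young pods, against 2163 and 2068 CPM in flowers (-2.05 ± 0.76, edgeR adjusted p = 0.0489). Both families lost their calls without flowers 1, flowers 2, young pods 1 or young pods 2, and miR8176 also without young pods 3.

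Among features of no family, 5 of 115 tested were called lower in young pods and 0 higher, both below the shares of 5.92% and 2.80% over all features. No reads of lcum-miR-70562_122-3p, a 24 nt feature, were listed in any young pod library, against 42 and 374 reads in flowers (183 and 410.3 CPM). It is at least 16.3-fold lower in young pods against 5 reads per library (edgeR adjusted p = 0.00279), and its call held under every alternative. The feature lcum-miR-55998_178-3p was likewise at 0 in young pods, against 12 and 174 reads in flowers, at least 6.69-fold lower, but lost its call without any one of the 5 libraries. The feature lcum-miR-5851_2620-3p had 154, 292 and 233 CPM in young pods, against 1781 and 4531 CPM in flowers (-3.80 ± 1.07, edgeR adjusted p = 0.0359). It lost its call under DESeq2's size factors, library size alone and the authors' factors, and without flowers 2 or any young pod library. The feature lcum-miR-10811_1404-3p had 31.8, 93.3 and 66.4 CPM in young pods, against 375 and 933 CPM in flowers (-3.36 ± 0.78, edgeR adjusted p = 0.0107), and lost its call without flowers 2 or young pods 1.

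Listing was lopsided between the tissues. In both flower libraries and no young pod library, 31 features were listed, of which 11 were tested, and 14 belonged to a family. One of them, mtr-MIR319b-p5_1ss13GA, had 20 and 87 reads in flowers and was at least 5.02-fold lower in young pods, just outside the threshold (edgeR adjusted p = 0.0507). In all 3 young pod libraries and no flower library only lcum-miR-136915_39-5p was listed, with 5, 7 and 11 reads. It was too scarce to be tested and at least 2.30-fold higher in young pods against 5 reads per library. Flowers 2 is the deepest of the 5 libraries, with 563 features listed, against 346, 330 and 246 in young pods and 285 in flowers 1. The part of this depth in the lopsided listing was not tested.

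The lengths of the mature sequences also differed. Features of 20 nt took 1.34%, 2.93% and 4.09% of reads in young pods, against 7.49% and 7.63% in flowers. Features of 18 to 19 nt took 3.09%, 6.19% and 7.68% of reads in young pods, against 12.4% and 10.4% in flowers. Neither share overlapped between the tissues (exact permutation p = 0.1, two-sided, for each, the smallest p that the 10 splits of 5 libraries allow). The most abundant 20 nt feature was gma-miR319f_1ss17TC, which made up most of this share in flowers. It took 0.367%, 1.41% and 2.05% of reads in young pods, against 6.21% and 6.18% in flowers. The most abundant feature of 18 to 19 nt was ath-miR8175_L-2, with 1.88%, 4.10% and 4.67% of reads in young pods, against 8.91% and 7.002% in flowers. That feature is not matched to a listed precursor and was not called (-1.08 ± 0.81, edgeR adjusted p = 0.498). With features exact in their listed precursor only, the 18 to 19 nt difference shrank to -0.880 percentage points, against -5.72 with all features.

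The rare longer classes were lower in young pods too. Features of 23 nt took 0.407%, 0.859% and 1.04% of reads in young pods, against 1.46% and 2.31% in flowers, and those of 24 to 25 nt took 0.0658%, 0.127% and 0.140% in young pods, against 0.235% and 0.476% in flowers. Both classes had no overlap (exact permutation p = 0.1 each, two-sided). The 21 nt class, the usual length of plant miRNAs, averaged 80.6 ± 6.28% in young pods (SD, n = 3) and 70.3 ± 2.53% in flowers (SD, n = 2), with every young pod library above both flower libraries (exact permutation p = 0.2). The 22 nt class averaged 10.1 ± 5.90% in young pods and 8.55 ± 1.95% in flowers, with overlap (exact permutation p = 0.9). No class can reach a p of 0.05 with 5 libraries.

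The balance of the arms was read on 21 pairs of features with at least 50 reads per arm on average. Because both strands come from the same library, depth and scaling cancel in the log2 ratio of 5p to 3p reads. In 19 pairs the tissues overlapped, in 2 young pods were below flowers, and in 0 above. For the miR167a pair the log2 ratio was 1.25, 1.55 and 2.78 in young pods, against 3.60 and 3.81 in flowers (mean difference -1.84, exact permutation p = 0.2, two-sided). The 3p strand was thus closer in reads to the 5p strand in young pods, with 971, 727 and 232 reads of 3p beside 2310, 2131 and 1596 reads of 5p, against 16 and 108 reads of 3p beside 200 and 1521 reads of 5p in flowers. The other pair was miR6173 (mean difference -0.67, exact permutation p = 0.2).

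Young pods 3 stood at an end of the 5 libraries in 17 of the 21 pairs, at the low end in 13 and at the high end in 4. Young pods 1 was also at an end in many pairs, often the opposite one. In the gma-miR396a pair the log2 ratio was -3.03 in young pods 1 and 0.798 in young pods 3. In the pair of mtr-miR166e-5p and mtr-miR166a it was -3.78 and -6.36. The count therefore does not single out young pods 3 as the odd library. In the miR398 pair the log2 ratio was 1.12, 1.46 and -2.81 in young pods, against 0.367 and -1.09 in flowers, and the 5p strand had 27155, 50737 and 410 reads in young pods. In the miR162 pair it was 1.97, 0.911 and -2.24 in young pods, against -0.236 and -2.01 in flowers. Young pods 3 was also low in ath-miR160a-3p and ath-miR168a-3p, as given above. Without it, 26 features and 14 families were called, of which 20 and 13 were among the 28 and 15 calls with it. Why young pods 1 and young pods 3 differ in arm balance was not tested.

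**Figure D4:**
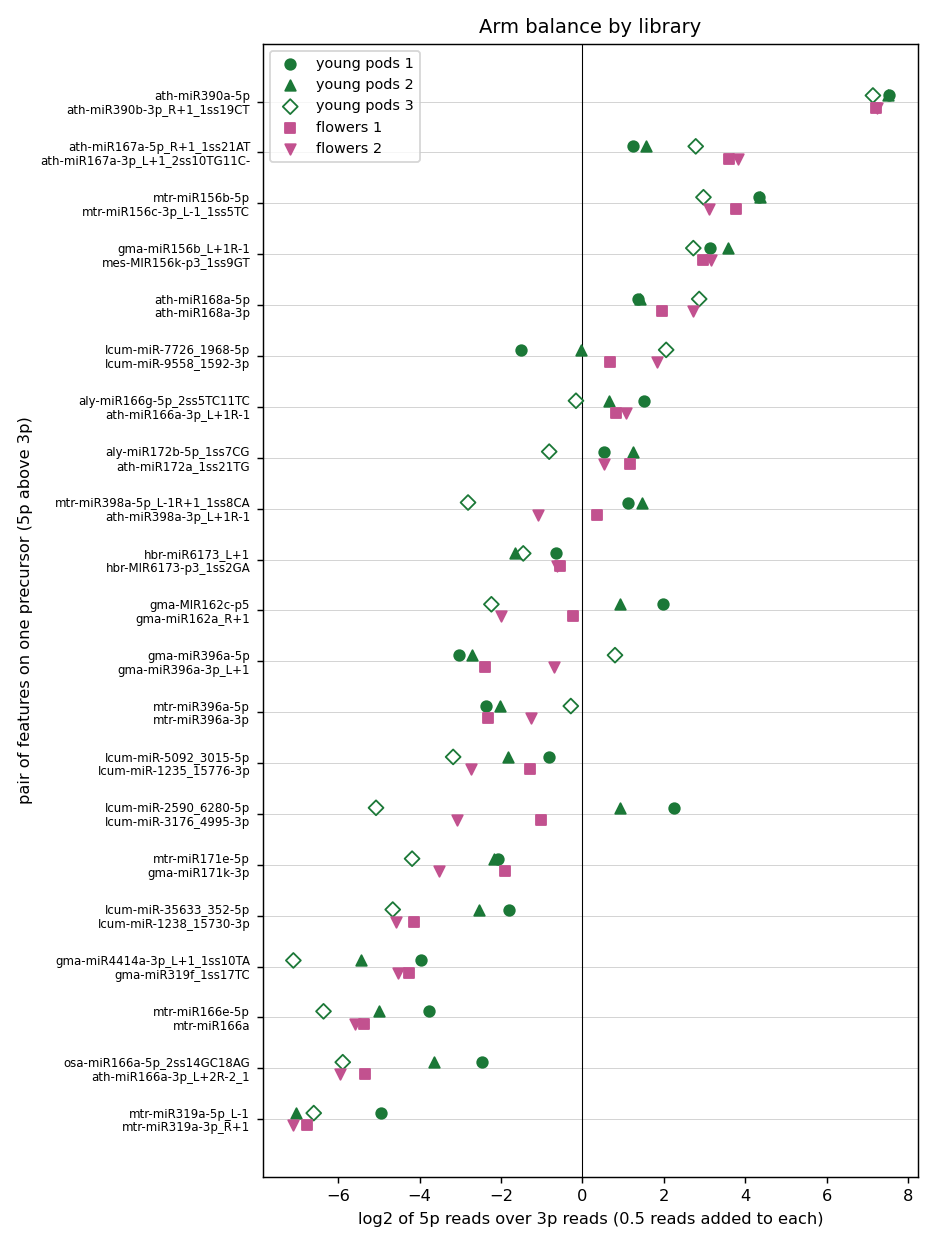
Log2 of 5p over 3p reads (0.5 reads added to each) for the 21 pairs of features on one listed precursor, with 1 marker per library and the pairs ordered by their mean in flowers. The markers of young pods lie left of those of flowers for the miR167a pair. The open diamonds of young pods 3 lie at an end of the row in 17 of the 21 pairs, and the circles of young pods 1 often lie at the other end.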

How the data were processed

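Small RNA libraries of 7 lentil tissues were made with a TruSeq kit, per the labels' protocols. The sources used here do not say how reads were trimmed, aligned and called as miRNAs, or on which genome build. No genome was used. In the deposited table the columns headed raw hold expected counts, that is, estimated numbers of reads. At a tolerance of 0.01, 25.8% of their non-zero values had a fraction. The other set, headed norm per the file headers, is a signal: the authors scaled every library's raw values by a constant, which served here as an alternative scaling only. Of the table's 1649 lines, 1642 were used and 7 are not reported here.

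Entries with one mature sequence (177 sequences stood more than once, each with equal counts in all its entries in every library) were collapsed to the entry with the highest total, so a level is that of 1 entry. Counts were rounded to whole numbers. Within a family, features with identical counts in all libraries were counted once. Low counts were removed with filterByExpr by tissue, and edgeR 4.0.16 (R 4.3.3) was fitted with glmQLFit and TMM scaling to all 20 libraries, modelling tissue alone, since flowers have 2 libraries. The standard error is the log2 fold change over the square root of F. Fold changes are fitted and so differ slightly from ratios of mean CPM. The edgeR fit of the features was run on simulated counts with known fold changes. Family sums, length shares and arm ratios were not simulated. Length shares and arm ratios were compared by exact permutation of the 5 libraries, computed in Python 3.11.15 with numpy 2.4.6 and pandas 2.3.3. DESeq2 1.42.0 was an alternative test, and other alternatives changed scaling, filtering, collapsing, the libraries fitted and the replicate block.

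Features named are the 8 with the largest and 8 with the smallest fold change among called features with reads in all 5 libraries, up to 4 per direction listed in every library of one tissue and none of the other, the 10 most abundant, and the most abundant of each called family. The features mtr-miR319a-3p_R+1, ath-miR167d_1ss22GA, ath-miR167a-5p, gma-miR162a_R+1 and mtr-MIR319d-p5 and the members of the arm pairs were named after their values were seen. The comparison and the lists of families were chosen with earlier results of these data known.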

Additional observations from a re-analysis of the deposited data

How the results depend on the processing

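All 15 called families and the 25 named called features kept their direction under every alternative tried. The losses of calls given above for a family or feature do not always list every alternative in which its call was lost. Calls were less stable: 4 families (miR164, miR172, miR319 and miR4414) and 4 named features (ath-miR167a-3p_L+1_2ss10TG11C-, gma-miR4414a-3p_L+1_1ss10TA, aly-miR172b-5p_1ss7CG and lcum-miR-70562_122-3p) were called throughout. The count of called features, 28, became 14 in a fit on the 5 libraries only and 43 with DESeq2's test, of which 12 and 25 were among the 28. Leaving out 1 library gave 7 to 30 features: 7 without flowers 2, 13 without flowers 1, 13 without young pods 1 and 16 without young pods 2. The count of called families, 15, became 8 in a fit on the 5 libraries only and 9 with no filter on low counts. Leaving out 1 library gave 5 to 15 families: 5 without flowers 2, 6 without flowers 1, 9 without young pods 1 and 5 without young pods 2. A test without 1 flower library assumes that the lone one varies like the other tissues.

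The median fold change of features moved by 0.23 (log2) with DESeq2's size factors, 0.29 with the authors' factors and -0.05 with library size alone, and that of families by 0.24, -0.10 and -0.47. With features exact in their precursor only, the difference in length shares was -0.880 points for 18 to 19 nt and -0.647 points for 23 nt.

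In the labels, libraries 1 and 2 of the tissues share only a number. The deviations of same-numbered libraries correlated at 0.143 and -0.098. With 2 flower libraries these values cannot settle whether the libraries are paired. With the replicate block, 24 features (6 higher, 18 lower) and 11 families (6 higher, 5 lower) were called.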
